A study of Mus musculus with 4 samples.

Results

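The Gpnmb and Spp1 macrophages of the mouse prostate libraries were cells chosen by their own transcript counts. A cell needed 500 UMIs (unique molecular identifiers, each standing for 1 captured transcript) and 200 genes, with no more than 20% of its UMIs mitochondrial. Its C1qa, C1qb and C1qc UMIs had to reach 10 per 10000 UMIs, with no Cd3e UMI, under 3 per 10000 for Mki67 and Top2a, and under 5 for Folr2, Cd163, Cd209f and Clec10a. Gpnmb and Spp1 together had to reach 10 per 10000 and exceed Cx3cr1 and Ms4a4c together, with no Ocstamp UMI. These limits picked 627 of 31165 cells, which is 2.01%.

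Each of 4 groups of mice gave 1 droplet library of dissociated prostate (10x Chromium 3' chemistry). Trp53 was intact in the groups called Trp53-intact (aged 4 months) and Trp53-intact ADT (5.5 months). Trp53 carried a deletion, marked PC in the genotype and read here as restricted to prostate cells, in Trp53-deleted (3.5 months) and Trp53-deleted ADT (5.5 months). ADT was taken to mean androgen deprivation therapy. The Trp53-intact mice were not wild type, since all 4 groups had a further engineered change in common. ADT cannot be separated from age or from the single library in either genotype. The genotypes differed in age only without ADT, and in both comparisons genotype and library cannot be told apart. With 1 library per group there is no replicate and no test, and every interval at the 95% level covers counting error only. The number of animals pooled per library is not stated in the labels.

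Gpnmb encodes a type I membrane glycoprotein found in lysosomes and at the surface of macrophages that clear lipid and cell debris. Spp1 encodes osteopontin, a secreted phosphoprotein that binds integrins and CD44 and is made by macrophages, osteoclasts and many tumour or stromal cells. Macrophages with both genes, together with Trem2, Cd9, Fabp5 and lysosomal genes, are known as lipid-associated or scar-associated macrophages in adipose tissue, fibrotic liver and tumours. Cx3cr1 and Ms4a4c mark a further C1q macrophage population with much MHC class II, and Folr2 and Cd163 mark tissue-resident macrophages.

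Promoters are shown for 2 lysosomal genes that stood higher in these cells than in the Cx3cr1 and Ms4a4c macrophages in each library, and for the defining gene Gpnmb. Ctsd and Ctsl were picked because they hold a motif: of the 7 lysosome genes higher in each library, 6 had a promoter, and 3 of these held CACGTG and 2 TCACGTGA. The lines below give their promoters from RefSeq on GRCm38.p6, from 250 bases before to 50 bases after the start, read 5′ to 3′ on the strand of the gene. Capitals mark CACGTG and the longer TCACGTGA, which contains it; both strands were searched, as for TCATGTGA.
Ctsd promoter, chr7:142387778-142388077, minus strand: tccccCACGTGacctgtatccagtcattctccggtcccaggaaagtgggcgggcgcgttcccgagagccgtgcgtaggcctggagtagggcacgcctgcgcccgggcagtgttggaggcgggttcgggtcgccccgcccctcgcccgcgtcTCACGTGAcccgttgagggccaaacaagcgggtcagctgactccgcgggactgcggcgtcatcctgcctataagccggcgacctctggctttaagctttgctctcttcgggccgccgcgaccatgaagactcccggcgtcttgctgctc
Ctsl promoter, chr13:64370471-64370770, minus strand: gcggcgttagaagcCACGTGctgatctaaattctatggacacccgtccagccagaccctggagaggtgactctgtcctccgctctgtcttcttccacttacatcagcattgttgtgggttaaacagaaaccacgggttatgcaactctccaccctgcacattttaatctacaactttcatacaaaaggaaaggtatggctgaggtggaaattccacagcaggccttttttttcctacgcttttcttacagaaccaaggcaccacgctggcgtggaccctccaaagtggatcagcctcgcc
Gpnmb promoter, chr6:49036268-49036567, plus strand: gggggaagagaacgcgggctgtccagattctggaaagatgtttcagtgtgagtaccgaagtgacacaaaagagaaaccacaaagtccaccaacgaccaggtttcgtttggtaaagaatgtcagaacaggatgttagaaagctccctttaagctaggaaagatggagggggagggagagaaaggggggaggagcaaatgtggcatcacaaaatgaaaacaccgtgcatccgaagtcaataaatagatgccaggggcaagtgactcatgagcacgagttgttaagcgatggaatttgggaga
Of 42 listed lysosome genes, 32 had a promoter in that table. TCACGTGA was found in 6 of them (18.8%), against 1.12% of all 27025 genes with a promoter. CACGTG was found in 10 (31.2%), against 8.09%, and TCATGTGA in 5 (15.6%), against 1.15%. CACGTG was in 4 of 17 lipid-associated macrophage promoters (23.5%), 2 of 14 of oxidative phosphorylation (14.3%) and 2 of 24 of glycolysis and hypoxia (8.33%). TCACGTGA was in 1 of those 17 (5.88%) and in none of the 14 or 24, and TCATGTGA was in none of these 3 sets. The 6 MHC class II promoters in the table held none of the 3 motifs. A match describes letters only, and the Gpnmb window held no match.

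The 4 libraries held 5694 to 9626 cells within the quality limits, with medians of 4081 to 5562 UMIs per cell. Of all 36326 barcodes 256 shared their sequence with a barcode of another library, and among the cells kept 224 did so. Among the Gpnmb and Spp1 macrophages 0 shared one with each other, and sharing with other cells was not counted for them. As references for free RNA, T cells, B cells, neutrophils, epithelial cells and fibroblasts were taken by their own marker genes. In the Trp53-deleted ADT library 21.9% of T cells held a Spp1 UMI after thinning to 2000 UMIs. The other libraries, in the order Trp53-intact, Trp53-intact ADT and Trp53-deleted, gave 2.79%, 2.85% and 2.41%. Before thinning the 4 shares were 6.13%, 9.76% and 4.22% in those 3 and 40.1% in Trp53-deleted ADT, where Spp1 outside macrophages was thus more frequent. Among members of 2000 UMIs or more the thinned shares were 94.8%, 85.7%, 100% and 98.6% (96.6%, 92.9%, 100% and 100% before). Thinning left out 30, 58, 10 and 285 shallower members and 11, 17, 33 and 46 shallower T cells.

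The macrophages numbered 88 in Trp53-intact, 86 in Trp53-intact ADT, 30 in Trp53-deleted and 423 in Trp53-deleted ADT. Their share of cells was 1.09% in Trp53-intact (interval 0.873 to 1.34), 1.11% in Trp53-intact ADT (0.888 to 1.37) and 0.527% in Trp53-deleted (0.356 to 0.751). In Trp53-deleted ADT it was 4.39% (3.99 to 4.82). The last library stood highest, and the intervals of the first 2 overlapped almost fully. As a share of the cells with C1q transcripts and no Cd3e, the values were 3.99%, 9.27%, 3.04% and 11.2%, so both ADT libraries stood above both others on that scale. These shares follow from the limits set on the same cells and are a description.

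Depth differed widely among the members. Median depth per member was 11291 UMIs in Trp53-intact, 894.5 in Trp53-intact ADT, 14224.5 in Trp53-deleted and 980 in Trp53-deleted ADT. In a cell of 1000 UMIs or fewer a single UMI of Gpnmb or Spp1 reaches the limit, and 208 members (33.2%) entered with 1 marker UMI. These were 22, 28, 8 and 150 cells in the library order above. In those single-UMI cells the 10 macrophage markers summed to 1787, 5111, 1612 and 3451 CPM (a gene's UMIs scaled to a fixed total of 1000000 UMIs over the summed cells), against 15649, 19606, 16853 and 14116 CPM over all members. Epithelial markers stood at 1254 to 1986 CPM in them and at 70.7 to 342 CPM over all members. Neutrophil markers stood at 331, 2982, 6628 and 1090 CPM in them, so in Trp53-deleted they exceeded the macrophage markers. B or plasma cell markers stood at 586 to 1986 CPM. The macrophage markers of reference neutrophils summed to 5713, 5006, 6217 and 6572 CPM, above the single-UMI members in every library but Trp53-intact ADT.

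Members with 2000 UMIs or more numbered 58, 28, 20 and 138 (244 in all), and they held 98.2%, 94.6%, 98.8% and 90.1% of the members' UMIs. Among all cells of that depth they made up 0.964% in Trp53-intact (0.733 to 1.24) and 0.490% in Trp53-intact ADT (0.326 to 0.707). The shares were 0.444% in Trp53-deleted (0.271 to 0.685) and 1.92% in Trp53-deleted ADT (1.62 to 2.26). On that count Trp53-intact ADT lay below Trp53-intact, where over all cells the shares were nearly equal. The Trp53-deleted ADT library stayed highest, by less. Every sum of UMIs given below therefore describes mainly these deeper cells.

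**Figure D1:**
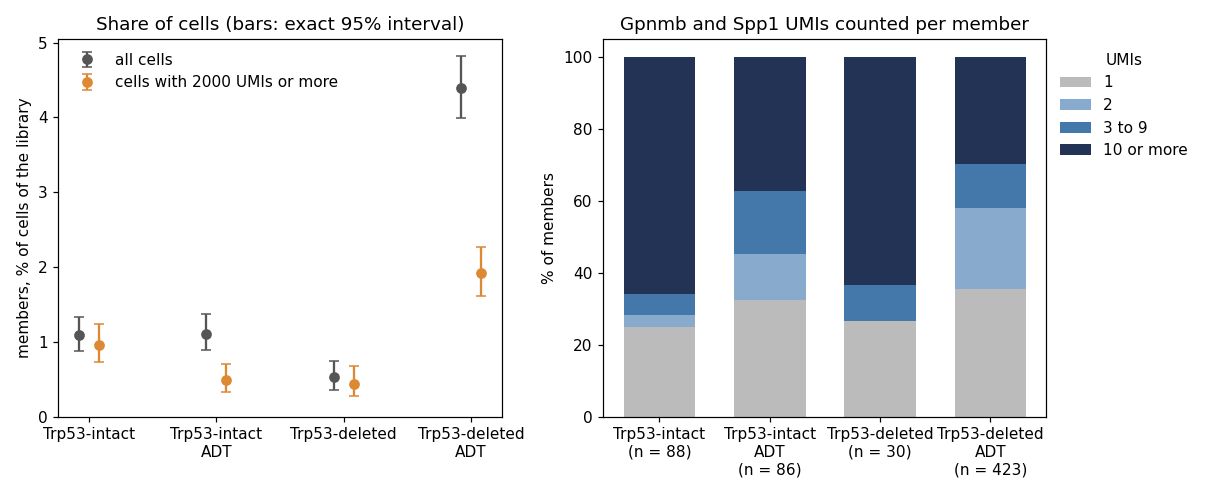
Left, members as a percentage of cells of each library (grey, all cells; orange, cells with 2000 UMIs or more), bars being exact Clopper-Pearson intervals at the 95% level. Right, percentage of members by how many Gpnmb and Spp1 UMIs they held; members with 1 such UMI were 22, 28, 8 and 150, and the share of members in Trp53-deleted ADT drops from 4.39% to 1.92% among deeper cells.

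At the threshold itself, cells with Gpnmb and Spp1 at 8 to 10 per 10000 UMIs, just outside, numbered 16, 8, 3 and 49. Those at 10 to 12, just inside, numbered 7, 11, 3 and 89. The median count behind a cell just inside was 2 marker UMIs in Trp53-intact and 1 in each other library. Other cell types also reached the Gpnmb and Spp1 level of the limit. Among cells of 2000 UMIs or more, 0%, 0.136%, 0% and 0.773% of T cells did (0 of 359 and 0 of 332 cells allow up to 1.02% and 1.1%, exact upper limits). Neutrophils did in 12.8%, 9.52%, 12.2% and 11.3%. Fibroblast reference cells did in 1.57%, 0.976%, 0.966% and 22.5%, and Trp53-deleted ADT stood apart. Under 2000 UMIs, where 383 of the 627 members lay, fibroblasts did in 4.02%, 7.14%, 4.02% and 30.5%. Epithelial cells of that depth did in 2.2%, 5.52%, 2.08% and 9.64%, against 0%, 0.2%, 0.287% and 0.368% of deeper ones. Shallow T cells did in 0%, 0%, 0% and 4.35% (11, 17, 33 and 46 cells). Shallow neutrophils did in 28.6%, 5.56%, 12.8% and 3.12% (14, 18, 47 and 32 cells). Doublet scores placed 16 of 88, 8 of 86, 10 of 30 and 75 of 423 members among the highest of their libraries. Of all barcodes 707 of 9401, 581 of 8524, 487 of 7806 and 898 of 10595 were placed there.

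The label was checked against defining markers. All 10 macrophage markers, among them Adgre1, Csf1r, Cd68 and Mertk, were detected in the members of each library. Adgre1, the F4/80 antigen, stood at 237, 254, 207 and 264 CPM, against 12.4, 1.43, 11.7 and 38.1 CPM in T cells. Csf1r, the CSF1 receptor, stood at 341, 327, 241 and 528 CPM. Dendritic cell markers summed to 27.1, 9.49, 9.71 and 62.1 CPM, and T or NK markers to 92.4, 3.56, 2.77 and 33.5 CPM. Neutrophil markers, 7 genes with S100a8 and S100a9, summed to 956, 642, 187 and 452 CPM. Among members of 2000 UMIs or more the macrophage markers summed to 15871, 20346, 17023 and 15220 CPM, against 15428, 10861, 12657 and 16977 CPM in the Cx3cr1 and Ms4a4c macrophages. Among members under 2000 UMIs the sums were 3820, 6769, 2793 and 4094 CPM, and neutrophil markers stood at 279, 4701, 7681 and 728 CPM. The macrophage name thus held for the deeper members, and these markers did not bear it out for the 383 shallower ones.

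Gpnmb was counted in 37, 34, 15 and 24 members, of 88, 86, 30 and 423, and the last library stood lowest at 5.67%. Spp1 without Gpnmb was the state of 51, 52, 15 and 399 members, both genes of 29, 27, 11 and 24, and Gpnmb without Spp1 of 8, 7, 4 and 0. In Trp53-deleted ADT the members were thus nearly all chosen on Spp1 alone. Gpnmb is encoded at chr6:49036546-49070929 (GRCm38, GENCODE M21, plus strand). Its level was 2033 CPM in Trp53-intact (1958 to 2110) and 3335 CPM in Trp53-intact ADT (3213 to 3461). It was 3839 CPM in Trp53-deleted (3698 to 3985) and 224 CPM in Trp53-deleted ADT (206 to 242). Spp1, at chr5:104435118-104441050 on the plus strand, stood at 5119 CPM (5000 to 5241), 5971 (5808 to 6139), 15379 (15094 to 15668) and 2847 (2784 to 2912). Both genes were lowest in Trp53-deleted ADT and highest in Trp53-deleted. These values chose the cells and carry no test.

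Because of that split, the deeper members were described in 2 sets. In the Gpnmb-led set, Gpnmb alone reached 10 per 10000 UMIs, and the rest were Spp1-led. The Gpnmb-led set held 23, 11, 9 and 4 cells, and the Spp1-led set 35, 17, 11 and 134. In Trp53-deleted ADT, 118 of the 138 deeper members had no Gpnmb UMI, against 29 of 58, 12 of 28 and 9 of 20 in the other libraries. The sets were made after the counts were seen, from the same genes as the rule, and the set of 4 cells is small.

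Fabp5 and Ctsd were both higher in the Gpnmb-led cells than in the Spp1-led cells of each library. Gpnmb itself, part of the choice, stood at 4155, 6180, 5269 and 6389 CPM in them. Fabp5, an intracellular fatty acid carrier, stood at 6378, 8615, 7998 and 6725 CPM in Gpnmb-led cells, a narrow range. In Spp1-led cells Fabp5 was at 1298, 865, 1818 and 327 CPM, below the Gpnmb-led cells in each library. Ctsd, the lysosomal aspartic protease cathepsin D, was at 5669, 9420, 11124 and 11795 CPM in Gpnmb-led and 2771, 3300, 3987 and 2039 CPM in Spp1-led cells. The Gpnmb-led values of both genes lay above every Spp1-led value.

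Mmp12, the macrophage elastase, stood at 1588, 2634, 2417 and 1030 CPM in Gpnmb-led cells and at 549, 630, 45.8 and 18.8 CPM in Spp1-led cells. Lgals3, the galectin that binds damaged lysosomes, stood at 4167, 6911, 6469 and 8079 CPM and at 2681, 3069, 3656 and 771 CPM. Trem2, a lipid-sensing receptor, stood at 1227, 1112, 1455 and 1875 CPM and at 747, 712, 581 and 466 CPM. For each of these 3 genes the Gpnmb-led cells were higher in all 4 libraries. Cd9, a tetraspanin of the same cell state, was not ordered that way: 532, 1048, 1252 and 741 CPM against 991, 992, 1100 and 386 CPM.

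For H2-Aa the order was the other way in 3 of 4 libraries. H2-Aa, an MHC class II alpha chain, stood at 377, 1188, 167 and 46.3 CPM in Gpnmb-led cells and at 1776, 475, 1742 and 2360 CPM in Spp1-led cells. Ccr2, the receptor that draws monocytes from blood, stood at 7.67, 0, 1.94 and 0 CPM against 30.6, 79.1, 50.9 and 299.8 CPM. The 2 values of 0 allow up to 6.76 and 34.7 CPM, the level of 3 counts. Ccr2 was lower in the Gpnmb-led cells of each library, and H2-Aa was higher in those of Trp53-intact ADT only. Single cells weighed on these sums: 41.1% of all H2-Aa UMIs of the Trp53-intact ADT members came from 1 cell.

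**Figure D2:**
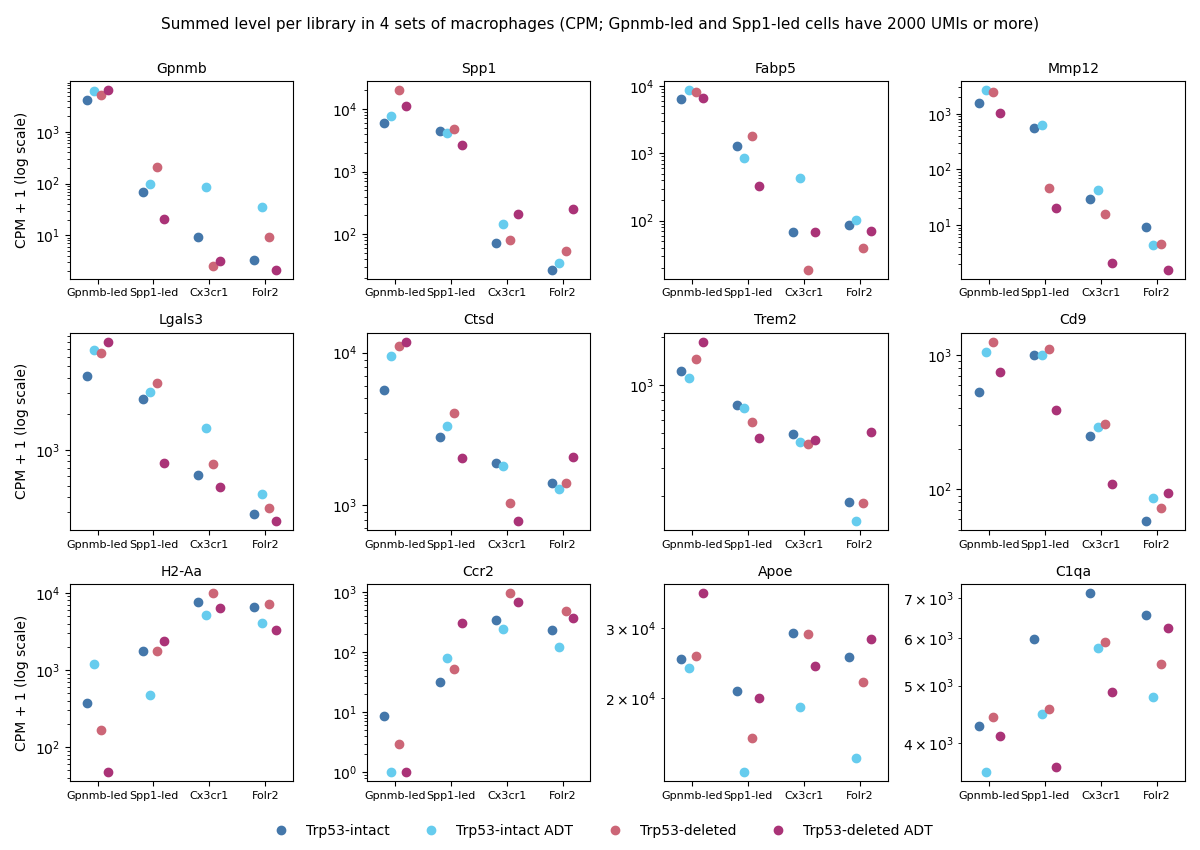
Summed CPM plus 1 (log scale) of 12 genes in Gpnmb-led and Spp1-led members, in Cx3cr1 and Ms4a4c macrophages and in Folr2 and Cd163 macrophages; each point is 1 library. Gpnmb-led cells of the 4 libraries lie close together for Fabp5 (6378 to 8615 CPM), whereas the Spp1-led cells of Trp53-deleted ADT (327 CPM) lie nearer the Cx3cr1 cells.

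The members were next set beside the Cx3cr1 and Ms4a4c macrophages of the same library, which numbered 175, 78, 85 and 857 cells. The rule placed cells on this very contrast, so it is described and not tested. A gene was called when its CPM ratio, with a pseudocount of 5 CPM, passed 1.5-fold the same way in all 4 libraries. Of 8922 genes with at least 100 UMIs, 167 were higher (1.87%) and 185 lower (2.07%). Without the Trp53-deleted ADT library the counts were 255 and 298 of 5870 genes (4.34% and 5.08%). With each cell of 2000 UMIs or more weighted equally they were 142 and 86, which is 62.3% of calls higher in place of 47.4%.

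The 12 named genes with the largest median ratio held several of lysosomes and lipid handling, beside others. Atp6v0d2, a subunit of the proton pump of lysosomes and osteoclasts, stood at 299, 340, 724 and 25.7 CPM against 2.97, 0, 2.96 and 2.68 CPM in the Cx3cr1 cells, where 0 allows up to 5.59 CPM. Mmp12 stood at 1044, 1693, 1742 and 49.9 CPM in members, 37.4, 41.3, 118 and 45.5 times the Cx3cr1 cells. Fabp5 stood at 3708, 4939, 6223 and 520 CPM in members, 55.8, 11.5, 350 and 7.77 times. Each of these genes was above the Cx3cr1 cells in every library. In Trp53-deleted ADT the Mmp12 UMIs came from 8 of 423 members.

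Mfge8, a bridge between dying cells and phagocyte integrins, was 12.2, 191, 58.3 and 3.83 times higher. Fabp4, a second fatty acid carrier, was 68.7, 7.94, 20.9 and 7.68 times higher, and Ctsl, cathepsin L, 5.45, 20.5, 19.6 and 2.32 times. Ctsk, the collagen-cleaving cathepsin K, stood at 160, 30.8, 123 and 146 CPM against 2.38, 1.86, 0 and 15.2 CPM. Arg1, arginase 1, stood at 60.1, 528, 325 and 151 CPM against 1.78, 145, 0 and 9.50 CPM (0 in the Cx3cr1 cells of Trp53-deleted allows up to 4.44 CPM for both genes). Saa3, Vat1, Gpr137b and Adam8 completed the 12, with Vat1 8.97, 9.94, 18.7 and 4.16 times higher. For several of them 1 cell held most UMIs of a library: 88.1% of Ctsk in Trp53-intact, 72.6% of Mfge8 and 63.0% of Ctsl in Trp53-intact ADT, and 78.9% to 92.2% of Saa3 in each library.

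Among the 12 named genes with the lowest ratios, 4 belonged to MHC class II (H2-Aa, H2-Eb1, H2-Ab1 and Cd74). H2-Aa stood at 1093, 880, 602 and 2213 CPM in members and at 7580, 5174, 9968 and 6398 CPM in the Cx3cr1 cells. H2-Eb1 was 0.121, 0.159, 0.0624 and 0.332 times the Cx3cr1 level, and Cd74, the invariant chain, 0.157, 0.178, 0.0853 and 0.354 times. Ccr2 stood at 22.0, 33.2, 16.6 and 279 CPM against 338, 240, 956 and 682 CPM, and Ly6c2, a monocyte antigen, was 0.227, 0.152, 0.0375 and 0.109 times. The members lay below the Cx3cr1 cells for each of these in each library, and least so in Trp53-deleted ADT except for Ly6c2. H2-Ab1, Tmem176a, Tmem176b, Plac8, Slco2b1, Lifr and St3gal6 were the other genes of the 12. Thinned to 2000 UMIs, 39.7%, 42.9%, 45.0% and 60.1% of members held an H2-Aa UMI (69.0%, 64.3%, 90% and 84.1% before), against 88.6%, 82.1%, 95.7% and 90.1% of Cx3cr1 cells and 8.27% to 21.5% of T cells.

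**Figure D3:**
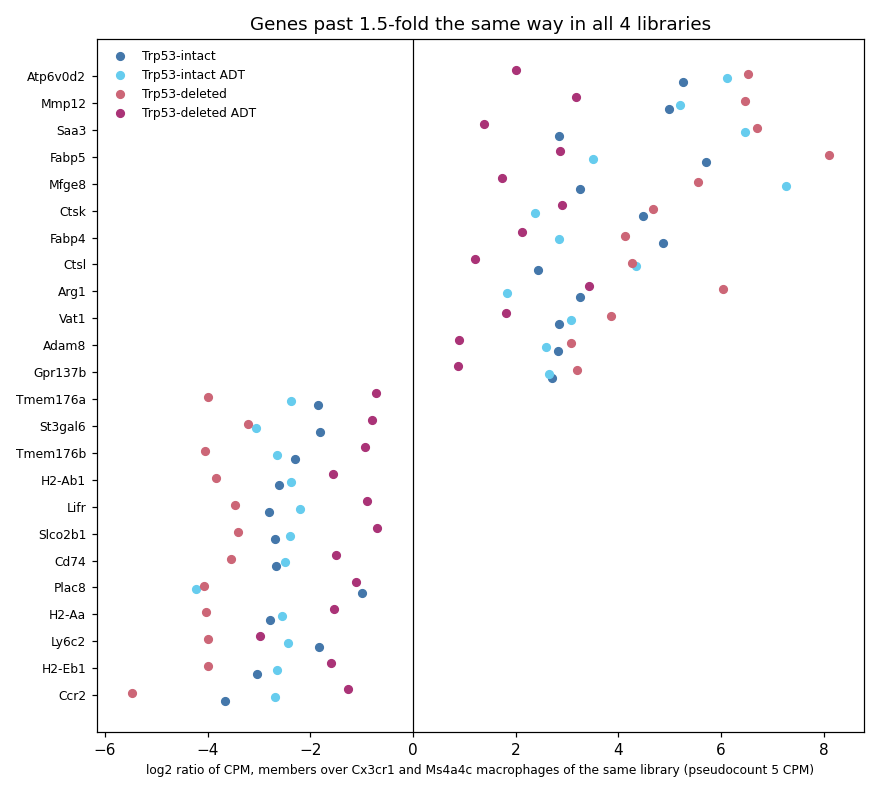
Log2 ratio of CPM in members over the Cx3cr1 and Ms4a4c macrophages of the same library for the 12 genes with the highest and the 12 with the lowest median; each point is 1 library. Points of Trp53-deleted ADT lie nearest 0 for most genes, for example 0.346 times for H2-Aa against 0.0604 to 0.170 times in the others.

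Lists of known genes were counted next. Over all genes of this contrast 1.87% were higher and 2.07% lower. Of 24 measured lipid-associated macrophage genes, 11 were higher in all 4 libraries and 0 lower (median log2 ratio 1.06, against -0.01 over all genes). They included Cd9 (3.06, 3.44, 4.04 and 3.64 times), Lgals3 (5.46, 3.30, 7.37 and 2.01 times) and Ctsd (2.21, 3.61, 8.87 and 2.81 times), together with Cd36, Lpl, Lipa, Cd63, Cstb, Ctsl, Fabp4 and Fabp5. Trem2 was not called, at 1.97, 2.04, 2.83 and 1.07 times, nor was Apoe, the lipid-carrying apolipoprotein, at 0.777 to 0.977 times. Of 41 lysosome genes, some of them on both lists, 7 were higher and 1, Ctsc, lower (median 0.47).

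Of 8 MHC class II genes, 7 were lower and 0 higher (median log2 ratio -2.34), Ciita, the master regulator of the class, included. Of 15 matrix protease genes 3 were higher (Mmp12, Adam8 and Timp2), and of 15 growth factor and matrix genes 5 were higher (Igf1, Pdgfa, Pdgfc, Fn1 and Gdf15). Of 14 iron and haem genes 4 were higher: Slc7a11, Gclm, Txnrd1 and Srxn1, which serve cystine uptake and thiol redox balance. Of 23 glycolysis and hypoxia genes 4 were higher (Pgk1, Pgam1, Pkm and Ndrg1; median 0.69). No gene of 27 interferon genes, 13 chemokine genes or 4 MiT-TFE transcription factor genes, which drive lysosome genes, was called either way. Over all genes 1.87% were higher and 2.07% lower, so no call in lists this short is near the background. Of 9 osteoclast genes 2 were higher, Atp6v0d2 and Ctsk, while Acp5, the osteoclast phosphatase, was 1.31, 1.11, 2.53 and 2.15 times the Cx3cr1 level.

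Against the Folr2 and Cd163 macrophages (800, 115, 445 and 185 cells), also separated by the rule, 223 of 9600 genes were higher in all libraries (2.32%) and 568 lower (5.92%). Of 24 glycolysis and hypoxia genes 12 were higher and 0 lower (median log2 ratio 1.54, against -0.12 over all genes). They held Slc2a1, the glucose transporter, at 75.5, 106, 88.8 and 29.4 CPM against 4.51 to 12.1 CPM. Vegfa, the vascular growth factor, stood at 254, 235, 211 and 90.8 CPM against 19.5, 41.7, 14.5 and 16.7 CPM. Of 20 dissociation stress genes such as Fos, Jun and Hspa1a 10 were lower. Mrc1, the mannose receptor, stood at 81.4, 106, 94.3 and 421 CPM against 1940, 2768, 2415 and 1556 CPM.

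Between libraries, a gene was called when the members' CPM differed 2-fold, over genes with at least 50 UMIs in both libraries together. The 4 comparisons share libraries in pairs and are not independent. ADT in Trp53-intact mice was set against no ADT first. Of 4824 genes 65 were higher with ADT (1.35%) and 173 lower (3.59%). With each cell of 2000 UMIs or more weighted equally, 224 were higher and 222 lower, a share of higher calls of 50.2% in place of 27.3%.

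Mfge8 stood at 3905 CPM with ADT and 202 CPM without, Arg1 at 528 and 60.1 CPM, and Saa3, an acute-phase protein, at 605 and 30.8 CPM. Of these, Arg1 was spread over 19 of 86 members with ADT, while 72.6% of Mfge8 and 85.1% of Saa3 UMIs lay in 1 cell. The other named genes that were higher with ADT rested on few cells. Marco had all its 56 UMIs in 1 cell and none in Trp53-intact (up to 2.20 CPM), and 1 cell held 93.7% of H2-M2, 86.4% of Cst7, 92.2% of Ly6i and 75.8% of Npy UMIs. Lower with ADT were Gdf15, a stress-induced cytokine, at 20.2 against 197 CPM, Il18bp at 36.8 against 196 CPM and Cxcl14 at 173 against 713 CPM. Atr (4.74 against 60.1 CPM), Lilra5 (3.56 against 44.0 CPM) and Ctsk (30.8 against 160 CPM) were lower too, and Igfbp2 and Gzma were lower as well, with 95.8% and 97.7% of their Trp53-intact UMIs in 1 cell.

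By list, 6 of 11 chemokine genes were lower with ADT and 1 higher (median log2 ratio -1.07, against -0.01 over all genes). Cxcl10, an interferon-induced chemokine, stood at 202 against 756 CPM, and Ccl2, which draws monocytes, at 299 against 680 CPM. In Trp53-intact 60.8% of the Cxcl10 UMIs came from 1 cell. Lipid-associated genes were called in 3 of 24 (2 higher, 1 lower) and lysosome genes in 2 of 40 (1 each way). Of 20 dissociation stress genes 4 were lower with ADT and 0 higher, where 3.59% of all genes were lower. The heat-shock gene Hspa1b was among them, at 5.93 against 556 CPM. Hspa1b was lower in the Cx3cr1 cells of the same libraries as well, at 29.8 against 1117 CPM.

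In Trp53-deleted mice ADT was the comparison with the largest count. Of 6852 genes, 979 were higher with ADT (14.3%) and 421 lower (6.14%), and the median log2 ratio over all genes was 0.24. With each deeper cell weighted equally, 615 were higher and 419 lower, which is 59.5% of calls higher in place of 69.9%. By list, 17 of 23 lipid-associated macrophage genes were lower and 0 higher (median -1.95), and 24 of 40 lysosome genes were lower and 0 higher (median -1.12). Of 21 glycolysis and hypoxia genes 10 were lower and 0 higher.

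Among single genes, Fabp5 stood at 520 CPM with ADT and 6223 CPM without (0.0836 times, 0.0786 to 0.0888), and Mmp12 at 49.9 against 1742 CPM (0.0286 times, 0.0238 to 0.0342). Atp6v0d2 stood at 25.7 against 724 CPM, Il18bp at 17.5 against 305 CPM and Mfge8 at 90.4 against 1208 CPM. Saa3, at 14.1 against 517 CPM, and Marco, with no UMI against 243 CPM (no UMI allows up to 1.12 CPM), each had over 90% of their Trp53-deleted UMIs in 1 cell, 92.2% and 99.4%. Ifi202b, an interferon-inducible gene, stood at 0.372 against 123 CPM. In the Cx3cr1 cells Ifi202b was at 0.122 against 71.1 CPM, and in the Folr2 cells at 0 against 69.1 CPM, so in that library it was near 0 in all 3 populations.

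The 8 named genes that were higher with ADT in Trp53-deleted mice included Ccr2, the monocyte receptor. Ccr2 stood at 279 against 16.6 CPM (16.8 times, 9.54 to 32.6), F13a1, a monocyte and resident macrophage gene, at 231 against 8.32 CPM, and Pf4, a chemokine, at 419 against 38.8 CPM. Ccl8 stood at 530 against 22.2 CPM, Clec4a1 at 109 against 4.16 CPM, Fcrls at 270 against 27.7 CPM and Nr4a2 at 340 against 31.9 CPM. Those 7 genes were counted in 80 to 130 of the 423 members, and Ccl8 stood at 5548 CPM in the Folr2 and Cd163 macrophages of that library. Markers of monocytes, 8 genes, summed to 402, 1181, 424 and 2046 CPM in the members, with 7 or 8 of them detected in each library. Fn1, whose levels are given below, was 1 of the 8 and made up most of each sum. The same 8 genes summed to 1458, 1135, 2024 and 2422 CPM in the fibroblast reference cells, so the sum is not particular to monocytes. The part of these markers in the difference was not tested. Cxcl9, an interferon-gamma-induced chemokine, stood at 159 CPM with ADT and had no UMI without (up to 4.16 CPM), and 50.2% of its UMIs lay in 1 cell. The interferon list went the other way: of 27 genes 13 were lower with ADT and 1 higher. Its median log2 ratio was -0.90, against 0.24 over all genes, of which 6.14% were lower and 14.3% higher. All 6 measured MHC class II genes were higher (median 1.83), H2-Aa by 3.68 times (3.34 to 4.06).

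The makeup of the members differed in the same comparison, and its part was not tested over all genes. Gpnmb-led cells were 9 of 20 deeper members without ADT and 4 of 138 with ADT. Within Gpnmb-led cells Fabp5 was at 6725 CPM with ADT and 7998 CPM without, and Ctsd at 11795 and 11124 CPM. Within Spp1-led cells Fabp5 was at 327 and 1818 CPM. Gpnmb-led H2-Aa was 46.3 CPM with ADT and 167 CPM without, the reverse of the order over all members. The 46.3 CPM came from 4 cells and lay near 34.7 CPM, the level of 3 counts there, so that order is uncertain.

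Fibroblast markers moved with the comparison too. The 7 fibroblast markers, each detected with ADT, summed to 7402 CPM there and to 758, 138 and 103 CPM in Trp53-intact, Trp53-intact ADT and Trp53-deleted. Col1a1, the collagen I chain, stood at 2778 CPM in the Trp53-deleted ADT members, 175 CPM in its Cx3cr1 cells and 275 CPM in its T cells. A few cells carried it: 14 of 138 deeper members (10.1%) had 50 or more collagen and Dcn UMIs per 10000 and held 96.4% of the Col1a1 UMIs. Of those 14, 11 were among the highest doublet scores. Without them the deeper members stood at 142 CPM Col1a1, 682 CPM Fabp5, 345 CPM Gpnmb and 3017 CPM H2-Aa. The Trp53-deleted members of that depth stood at 6294 CPM Fabp5 and 600.8 CPM H2-Aa. The part of doublets and free RNA in these differences was not tested.

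Spp1 was also counted outside macrophages in that library. The fibroblast reference cells stood at 1738 CPM Spp1 there and at 248, 57.6 and 23.6 CPM in Trp53-intact, Trp53-intact ADT and Trp53-deleted. Cdkn2a, a cell cycle inhibitor high in the Cdkn2a-positive fibroblast-type cells of that library (1963 CPM), was at 603 CPM in its members and 66.8 CPM in its Cx3cr1 cells. In the other libraries the members held 44.0, 7.11 and 31.9 CPM of Cdkn2a. The part of such cells in the count of members was not tested.

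Trp53-deleted was then set against Trp53-intact without ADT. Of 4654 genes 111 were higher (2.39%) and 232 lower (4.98%), or 251 and 248 with each deeper cell weighted equally (50.3% of calls higher in place of 32.4%). Of 24 lipid-associated genes 4 were higher and 2 lower (median log2 ratio 0.67, against 0.00 over all genes). Ctsd stood at 9074 against 4136 CPM (2.19 times, 2.12 to 2.27) and Cd36, a scavenger receptor for lipids, at 325 against 73.3 CPM. Of 40 lysosome genes 5 were higher and 0 lower. Apoc1 and Pltp, which serve lipoproteins, were lower, Apoc1 at 9.71 against 76.2 CPM.

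Marco, Saa3, Mfge8, Chil3, Slc39a2, Arg1, Fabp3 and Egr2 were the highest named genes, and most lay in 1 of the 30 cells. That cell share was 99.4% for Marco, 97.3% for Chil3, 92.2% for Saa3, 78.6% for Arg1 and 62.8% for Egr2. Fabp3, a fatty acid carrier at 185 against 31.5 CPM, was counted in 7 cells, and Slc39a2, a zinc importer at 87.4 against 4.4 CPM, in 6. Lower were Ccl8 at 22.2 against 400 CPM, Fcrls at 27.7 against 184 CPM, Clec4a1 at 4.16 against 51.3 CPM and Cxcl14 at 194 against 713 CPM. Igfbp2, Gzma, Apoc1 and Il10 were lower too, Il10 at 2.77 against 52.1 CPM from 9 members of Trp53-intact. Without the highest doublet scores Chil3 and Gzma reversed, to log2 ratios of -0.43 and 0.11. Of 20 dissociation stress genes 7 were lower, where 4.98% of all genes were, with Hspa1b at 13.9 against 556 CPM.

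With ADT, Trp53-deleted against Trp53-intact gave 826 of 6941 genes higher (11.9%) and 264 lower (3.8%), with a median log2 ratio of 0.20 over all genes. With each deeper cell weighted equally the counts were 614 and 413 (59.8% of calls higher in place of 75.8%). Without the highest doublet scores 528 genes were higher. Of 23 lipid-associated genes 17 were lower and 0 higher (median -1.56), and of 21 glycolysis and hypoxia genes 11 were lower and 0 higher. Fabp5 stood at 520 against 4939 CPM, Mmp12 at 49.9 against 1693 CPM and Atp6v0d2 at 25.7 against 340 CPM. AA467197 stood at 26.4 against 519 CPM, counted in 33 and 24 members. Mfge8, Saa3, H2-M2 and Pla2g2d were lower as well, and 72.6% to 95.8% of their Trp53-intact ADT UMIs lay in 1 cell.

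Higher in that comparison were Ccr2 (279 against 33.2 CPM), F13a1 (231 against 22.5 CPM), Ccl8 (530 against 121 CPM) and Cxcl9 (159 CPM against no UMI, which allows up to 3.56 CPM). Fkbp5, a co-chaperone induced by glucocorticoid and androgen receptors, stood at 89.7 against 8.30 CPM, in 104 of 423 and 6 of 86 members. Fkbp5 in the Cx3cr1 cells was 105 against 35.4 CPM. Lifr stood at 58.0 against 7.11 CPM, while 67.0% of Cst6 and 96.6% of Gzmc UMIs lay in 1 cell. Without the highest doublet scores the Gzmc ratio turned to a log2 value of -0.05. Of 7 MHC class II genes 6 were higher (median log2 ratio 1.16, against 0.20 over all genes). Of 27 interferon genes 6 were higher and 2 lower, where 11.9% of all genes were higher and 3.8% lower. The median of the interferon list was 0.13, below that of all genes.

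Trp53 itself stood at 43.3, 39.1, 43.0 and 48.7 CPM in the members, so they give no check of the deletion, which is read as restricted to prostate cells. Of 11 measured p53 target genes, 4 were lower with ADT in Trp53-deleted mice and 0 higher, among them Cdkn1a at 350 against 911 CPM (6.14% of all genes were lower). In Trp53-intact mice 2 of 10 were lower with ADT, Cdkn1a at 353 against 789 CPM and Gdf15 (3.59% of all genes were lower).

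**Figure D4:**
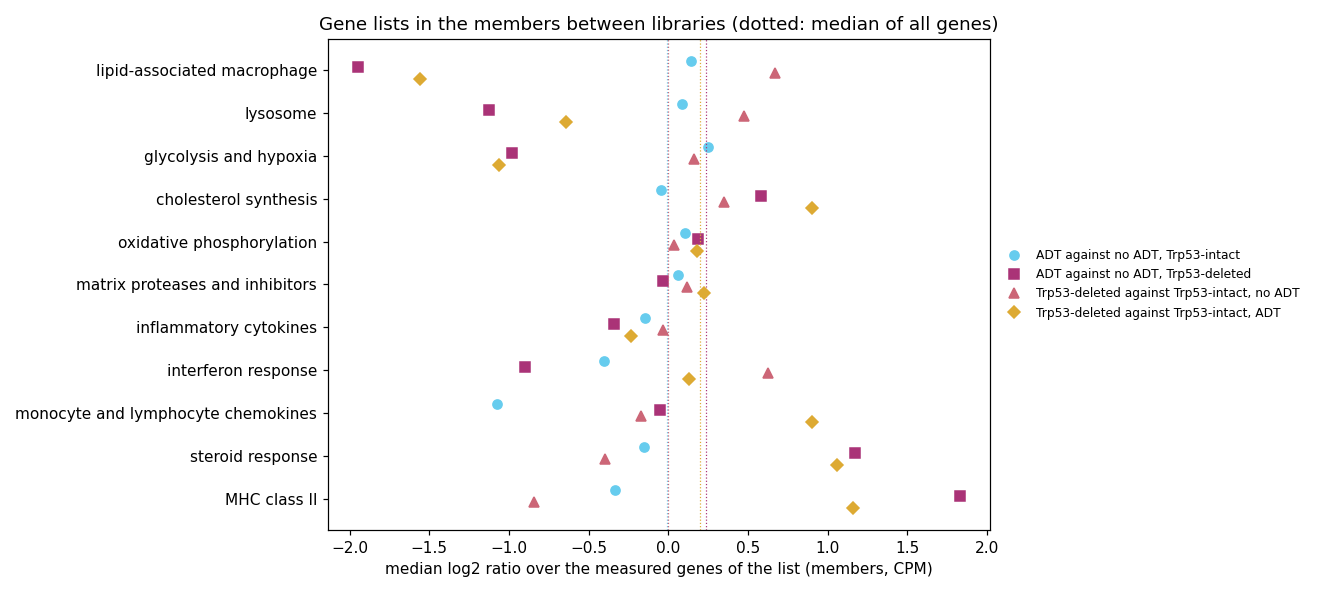
Median log2 ratio of CPM over the measured genes of 11 lists in the members, for 4 comparisons of libraries; dotted lines are the medians over all genes tested. The 2 comparisons that include Trp53-deleted ADT put lipid-associated (-1.95 and -1.56) and glycolysis genes below and MHC class II genes (1.83 and 1.16) above the medians of all genes.

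Of 14 measured inflammatory cytokine genes, 4 were lower with ADT in Trp53-deleted mice and 0 higher, where 6.14% of all genes were lower and 14.3% higher. In Trp53-intact mice 1 of 13 was higher and 1 lower (1.35% and 3.59% of all genes). Between genotypes 2 of 13 were higher and 1 lower without ADT (2.39% and 4.98% of all genes), and 2 of 14 were higher and 4 lower with ADT (11.9% and 3.8%). Il1b, the cytokine interleukin 1 beta, stood at 1361, 1539, 850 and 1202 CPM, and Cxcl2, which draws neutrophils, at 2691, 3043, 2219 and 3136 CPM. Tnf stood at 224, 87.7, 583 and 121 CPM, with 36.2% of the Trp53-deleted UMIs in 1 cell. Il1a, interleukin 1 alpha, stood at 337, 247, 444 and 19.7 CPM, lowest in Trp53-deleted ADT. Cd274, the checkpoint ligand PD-L1, followed at 136, 113, 154 and 13.8 CPM, and in Gpnmb-led cells alone it was at 223, 169, 176 and 208 CPM.

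Partners and matrix genes were read last. Cd44, a receptor for osteopontin, stood at 141, 296, 176 and 181 CPM, and Itgav, the alpha V integrin, at 73.3, 78.3, 45.8 and 81.5 CPM. Of the 8 measured partner genes 1 was higher with ADT in each genotype, Cd44 in Trp53-intact and Itga9 in Trp53-deleted mice. In Trp53-deleted mice 14.3% of all genes were higher, so the count there is near the background. In Trp53-intact mice 1.35% of all genes were higher, and the count rests on 1 gene. Fn1, fibronectin, stood at 236, 896, 262 and 1214 CPM, above the Cx3cr1 cells (66.5, 222, 32.6 and 293 CPM) in each library, and both ADT libraries stood above both others. Fn1 stood higher in Spp1-led cells, at 367, 1650, 871 and 1229 CPM, than in Gpnmb-led cells, at 106, 386, 31.0 and 741 CPM. A value without the 14 collagen-rich members of Trp53-deleted ADT is not given, and the part of fibroblast RNA in Fn1 was not tested.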

How the data were processed

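The deposited matrix holds raw UMI counts per gene (30905) and barcode (36326), made by the authors with Cell Ranger on mm10. The submitters' processing notes give version 2.1.1, the matrix header 3.1.0. Libraries were read from the deposited table of barcode suffixes, and 0 columns belonged to no sample. The limits were read per 10000 UMIs of a cell, except raw counts for Cd3e and Ocstamp. Doublets were kept. Scrublet (scanpy 1.11.5) marked 0, 1, 2 and 2 barcodes automatically, too few to use. As an alternative the highest scores were left out, a share of 0.008 per 1000 barcodes, that is 707, 581, 487 and 898 barcodes.

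UMIs were summed over members per library and scaled to CPM. A pseudocount of 5 CPM was added before taking log2 ratios. Exact Poisson, conditional binomial and Clopper-Pearson intervals were computed. The pipeline was tested on simulated data. Members and lists were chosen with earlier results of these data known. Named genes between libraries needed 50 UMIs and a CPM at least that of every reference population where they were higher. Mitochondrial, ribosomal, haemoglobin, Gm, Rik and rule genes were left out, and the 8 highest and 8 lowest ratios with a pseudocount of 10 CPM were named. Against Cx3cr1 cells the 12 highest and 12 lowest medians past 1.5-fold in all libraries were named. Up to 5 genes each way per list, and Trp53, were added. Of 382 listed genes 5 were not matched to 1 identifier. Other settings covered depth, threshold, doublets, scaling, pseudocount, gene minimum, free RNA, denominators and mitochondrial limit. A further part of the genotype, common to the groups, is not reported here. Python 3.11.15, NumPy 2.4.6, SciPy 1.17.1 and pandas 2.3.3 were used.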

Additional observations from a re-analysis of the deposited data

Results flagged for a closer look

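Some named genes differed 2-fold or more with ADT in opposite directions in the 2 genotypes; the difference was not tested, since each value compares 1 library with 1 library. Mfge8 had a log2 ratio with ADT of 4.24 in Trp53-intact and -3.67 in Trp53-deleted mice, Saa3 of 4.09 and -4.77, and Marco of 3.84 and -5.63. Arg1 had 3.03 and -1.08. Ccl8 had -1.69 in Trp53-intact and 4.30 in Trp53-deleted mice, and Igfbp2 had -4.67 and 3.14. One cell held 72.6% of the Mfge8, 85.1% of the Saa3 and all of the Marco UMIs of Trp53-intact ADT, and 95.8% of the Igfbp2 UMIs of Trp53-intact. Ccl8 was counted in 38, 14, 11 and 114 members in the library order of the text, and Arg1 in 15, 19, 5 and 26. Over the 4748 genes measured in both comparisons, 58 were called higher with ADT in Trp53-intact mice, of which 10 were called higher and 18 lower in Trp53-deleted mice. Of 146 called lower in Trp53-intact mice, 61 were called higher and 20 lower in Trp53-deleted mice. Over all 6852 genes of the Trp53-deleted comparison 14.3% were called higher and 6.14% lower. That set is wider than the 4748 genes, for which the shares are not given, so it is not a like background.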

How the results depend on the processing

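Over 14 results of the text and their other settings, 81 of 120 values kept direction and size, 34 moved and 5 reversed. Over 88 named genes, 715 of 792 kept both, 73 moved and 4 reversed. The cause was not tested except where the setting itself sets it. The settings of 3 marker UMIs, equal weights and a left-out library were chosen after seeing the data. The difference in share with ADT in Trp53-intact mice, 0.0223 percentage points, reversed to -0.0495 at a threshold of 20, -0.172 with at least 3 marker UMIs, -0.474 with 2000 UMIs per cell, -0.0958 with a 10% mitochondrial limit and -0.559 on thinned cells, and was 5.27 of C1q cells. In Trp53-deleted mice it was 3.87, then 1.30, 1.46, 1.48 and 4.53 (threshold, 3 UMIs, 2000 UMIs, thinned) and 8.13 of C1q cells. Trp53-deleted against Trp53-intact with ADT gave 3.28, then 1.04, 1.24, 1.43 and 4.53, and 1.90 of C1q cells; without ADT -0.560, and -0.955 of C1q cells.

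Counts of genes moved past 1.5 times as follows. Against Cx3cr1 cells, 255 were higher and 298 lower without the Trp53-deleted ADT library, and 86 lower with equal weights. For ADT in Trp53-intact mice, 224 (equal weights), 132 (a gene minimum of 20 UMIs) and 340 (neutrophil CPM subtracted, which also removes genes both cell types express) were higher, and 371 (minimum) and 677 (subtracted) lower. For ADT in Trp53-deleted mice, 615, 1523 and 1602 were higher under these settings, and 701 lower (subtracted). For genotype with ADT, 1291 (minimum), 528 (doublets out) and 1350 (subtracted) were higher, and 413 (equal weights) and 612 (subtracted) lower. For genotype without ADT, 251, 198 and 325 were higher under equal weights, minimum and subtraction, and 467 (minimum) and 786 (subtracted) lower. Reversed genes were Chil3 (log2 ratio -0.43, doublets out) and Gzma (0.14 at a threshold of 20, 0.11 with doublets out) for genotype without ADT, and Gzmc (-0.054, doublets out) for genotype with ADT. Depth limits most the 383 members under 2000 UMIs. No paired analysis was possible because each group is 1 library.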
